A study of Homo sapiens with 8 samples.

Results

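Inflammatory chemokines and the cytokine IL1B were followed across 4 groups of HEL cells. HEL is an established erythroleukaemia line, of human origin, whose growth depends on a mutant, active JAK2. The genes were CXCL8, CXCL1, CXCL2, CXCL3, CCL2, CCL3, CCL4, CCL5, CCL20 and IL1B, chosen by name. A probe set, the array feature that reports a transcript, was used where the platform annotation names 1 of these genes alone. That gave 15 probe sets for 9 of the 10 genes, out of 54675 probe sets on the arrays. CCL3 had none of its own, because its probe set is shared with the near-identical copies CCL3L1 and CCL3L3, and it was not analysed here. For a gene with several, the probe set of highest mean log2 signal stood for it, and all 9 genes were among the 14162 that passed the filter on low signals.

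The drug arm held 2 arrays of cells exposed to 0.5 µM CEP701 for 16 h and 2 of cells exposed to DMSO for 16 h. CEP701 is lestaurtinib, an inhibitor of JAK2, FLT3 and other kinases, and DMSO is its vehicle. In the shRNA arm, 2 arrays came from a stable line carrying a pLKO lentiviral shRNA against PRMT5, an arginine methyltransferase, and 2 from cells with a scramble shRNA. A single PRMT5 shRNA was used, all 4 groups were grown in RPMI with 10% fetal bovine serum, and nothing more is said of how the scramble cells were made. The series was designed to set the drug profile beside the knockdown profile. Nothing in the labels says that replicates were separate cultures, so p-values measure the spread between these arrays, which may be technical, and 2 arrays per group limit the precision of every value.

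Chemokines are small secreted proteins that guide white blood cells through G-protein-coupled receptors. CXCL8, CXCL1, CXCL2 and CXCL3 attract neutrophils through CXCR2, and CXCL8 also does so through CXCR1. CCL2 attracts monocytes through CCR2, CCL4 and CCL5 attract T cells and monocytes, and CCL20 acts on CCR6. IL1B is made as a precursor that caspase 1 cleaves, and it induces most of these chemokines through NF-kB in many cell types. Their genes are known as rapid targets of NF-kB and AP-1, and many of their messages carry AU-rich elements that shorten their life.

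The stretch just before the transcription start is shown for the 4 neutrophil chemokines, CCL20 and IL1B, because these genes moved by very different amounts in the comparisons that follow. The sequences are RefSeq's, of build GRCh38.p14, read on the gene's own strand from 110 to 11 bases before the start, and capitals mark matches to the kB motif GGNNTTTCC on either strand.
CXCL8, chr4:73740459-73740558, plus strand: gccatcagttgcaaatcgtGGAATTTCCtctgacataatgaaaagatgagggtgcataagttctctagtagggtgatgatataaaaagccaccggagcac
CXCL1, chr4:73869283-73869382, plus strand: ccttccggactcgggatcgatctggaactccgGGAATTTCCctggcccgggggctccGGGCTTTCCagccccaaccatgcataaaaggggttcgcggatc
CXCL2, chr4:74099206-74099305, minus strand: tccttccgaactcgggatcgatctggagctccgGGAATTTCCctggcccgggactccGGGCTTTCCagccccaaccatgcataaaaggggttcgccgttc
CXCL3, chr4:74038700-74038799, minus strand: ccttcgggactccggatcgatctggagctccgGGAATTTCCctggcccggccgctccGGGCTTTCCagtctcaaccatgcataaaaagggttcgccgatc
CCL20, chr2:227813732-227813831, plus strand: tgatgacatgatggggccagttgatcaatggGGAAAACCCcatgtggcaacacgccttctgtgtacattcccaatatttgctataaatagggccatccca
IL1B, chr2:112836790-112836889, minus strand: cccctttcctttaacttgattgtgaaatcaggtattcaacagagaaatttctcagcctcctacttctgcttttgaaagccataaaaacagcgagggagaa

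The windows of CXCL1, CXCL2 and CXCL3 were nearly the same, with 93.1% identity between CXCL1 and CXCL2, 91% between CXCL1 and CXCL3 and 89.1% between CXCL2 and CXCL3. In the longer window from 250 bases before to 50 after the start, 7 of the 10 genes had an entry, and 5 of them held the kB motif, against 6.26% of 35116 promoter windows. CXCL8 alone of them held the AP-1 motif TGANTCA (7.71% of windows), at 137 bases before the start. CXCL8, CCL3 and CCL20 held TATAAA (11.5% of windows). Both strands were searched, and no match overlapped another motif's. No kB match was found in the IL1B window, which says only that these letters are not there.

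The targeted gene was checked first. PRMT5 had signals of 664 and 315 on the PRMT5 shRNA arrays, against 1794 and 984 on the scramble arrays, with log2 differences of -1.42 and -1.61 within the replicate pairs (adjusted p = 0.217, and 1.56e-04 with the pairs as a block). It was also lower in scramble than in DMSO cells, where it read 3419 and 3221 (log2 difference -1.31, adjusted p = 0.0120). Here and throughout, a log2 difference is between values of log2(signal + 10). The blocked fit also pairs CEP701 with DMSO arrays by number, and its spread comes from both arms. Log2 signals of the 14162 genes correlated at 0.964 to 0.978 (Pearson's r) within groups, and at only 0.804 to 0.845 when an array of the drug arm was set against one of the shRNA arm. The arms also differed in cell markers. The sum of 13 measured monocyte and macrophage markers was 58466 to 82358 on the PRMT5 shRNA arrays and 68671 to 74587 on the scramble arrays. In the drug arm it came to 8556 to 9671 for CEP701, against 5818 to 5868 for DMSO. The embryonic globin HBE1 ran the other way, at 298 to 786 over the shRNA arm and 9433 to 11721 over the drug arm. Erythroid markers did not share 1 direction. Of 6 tested, 1 (EPOR) was called higher in scramble than in DMSO cells and 2 (HBE1 and GATA1) lower.

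On the CEP701 and DMSO arrays, CXCL1, CCL2, CCL4 and CCL20 lay below 60.0, the median of all signals, on every array. IL1B, CXCL8, CXCL2 and CXCL3 lay above it on all 4, and CCL5 on 3 of 4. In the shRNA arm, 8 of the 9 genes were above 60.0 on all 4 arrays, and CCL20 only on the 2 scramble arrays. Probe sets differ in brightness, so the signals of different genes are not compared as amounts of RNA.

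**Figure D1:**
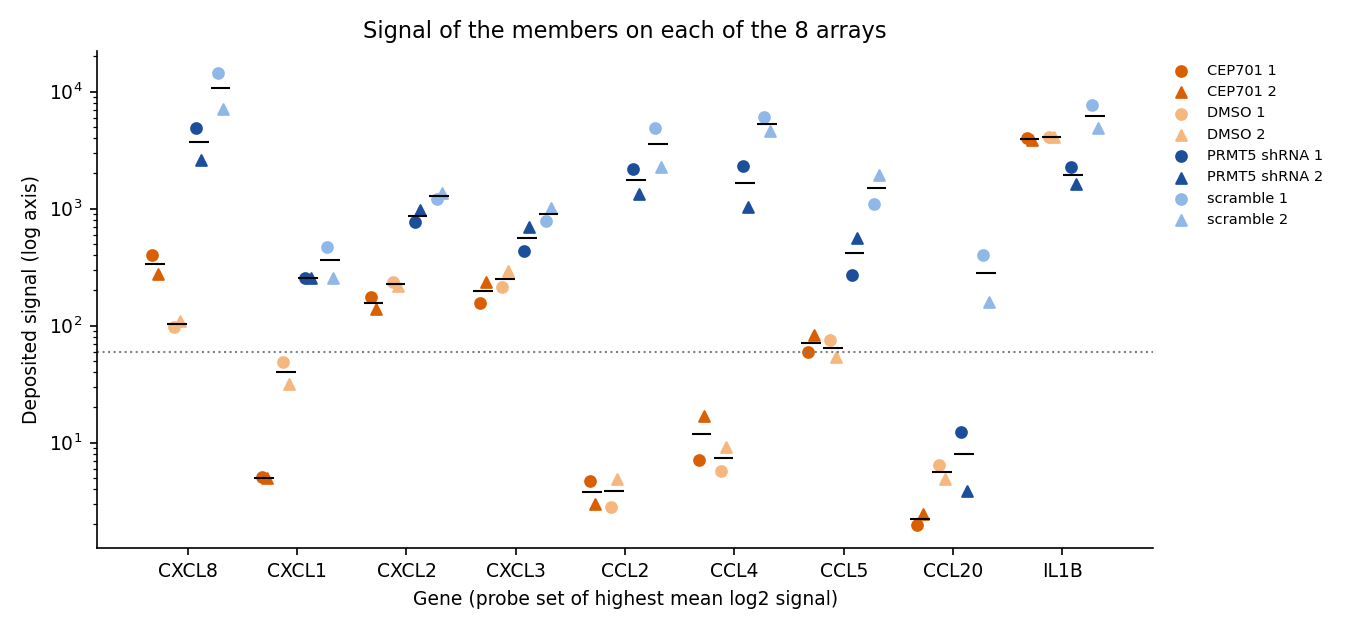
Deposited signal of each gene (log axis) on the 8 arrays, with CEP701, DMSO, PRMT5 shRNA and scramble from left to right within a gene, circles for replicate 1, triangles for replicate 2, black lines for group means and a dotted line at 60.0, the median of all signals. The scramble mean is the highest of each gene, CCL2, CCL4, CXCL1 and CCL20 lie under the dotted line on all CEP701 and DMSO arrays, and IL1B is the gene whose PRMT5 shRNA signals lie below those of the drug arm.

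The PRMT5 shRNA and scramble cells were compared to ask which of these genes differ after knockdown. IL1B fell in PRMT5 shRNA cells, and the 8 chemokines were also lower on average, by amounts that ran from CXCL1, with almost no difference in 1 pair, to CCL20, which was near background after knockdown. IL1B was the 1 of 9 genes that passed the test over all genes (0.141% of genes were called lower), and 5 passed once the arrays were paired (1.26%). Among these 5, CCL20 passed the filter only through the scramble arrays, which partly sets that count.

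IL1B had signals of 2281 and 1619.9 on the PRMT5 shRNA arrays, against 7664 and 4848 on the scramble arrays. The groups did not overlap, and the knockdown arrays stood at 29.8% and 33.4% of their paired scramble arrays. Its log2 difference was -1.66 ± 0.23 (SE, limma, n = 2 each, adjusted p = 0.0411). With the replicate pairs as a block, in a fit whose spread comes from both arms, it was called again (adjusted p = 3.16e-05). Its other probe set gave a log2 difference of -1.61, with signals of 1934 and 1416 in PRMT5 shRNA cells against 6278 and 4069.6 in scramble cells. The call depended on the arrays and the model: it passed in 10 of 20 alternatives, and it was lost without any 1 of the 4 drug-arm arrays, without PRMT5 shRNA replicate 1 or 2 and without scramble replicate 1 (log2 differences of -1.99 to -1.33 over all arrays left out).

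CCL20, which draws cells bearing CCR6 such as immature dendritic cells, had signals of 12.2 and 3.85 on the PRMT5 shRNA arrays, against 399.9 and 159 on the scramble arrays. The knockdown signals were of the same size as those with DMSO, at 6.42 and 4.90. Its log2 difference of -3.91 ± 0.72 was the lowest of all 14162 genes, but its adjusted p was 0.117. With the block it was 0.0369. CCL20 passed the filter only through the scramble arrays, where it is high, so its place at the end of the ranking is partly set by that filter. The added 10 also sets the size of its difference.

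CCL5 and CCL4 fell with the block alone. CCL5 had 269.9 and 564 in PRMT5 shRNA cells, against 1094 and 1937 in scramble cells, a log2 difference of -1.87 ± 0.40 (adjusted p = 0.187, and 7.93e-03 with the block). Its 2 other probe sets gave -1.67 and -1.92. CCL4 had 2305 and 1032 in PRMT5 shRNA cells, against 6093 and 4569.5 in scramble cells, a log2 difference of -1.77 ± 0.40 (adjusted p = 0.208, and 0.0114 with the block). For both genes the highest knockdown array stayed under the lowest scramble array. CCL2, the monocyte attractant, had 2181 and 1345 in PRMT5 shRNA cells, against 4911 and 2286 in scramble cells. Its log2 difference of -0.96 ± 0.40 did not pass without the block (adjusted p = 0.720) or with it (0.169).

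Among the neutrophil chemokines, CXCL8 passed with the block, and differences between these genes were not tested. CXCL8 had 4906 and 2594 in PRMT5 shRNA cells, against 14347 and 7118 in scramble cells, which is 34.2% and 36.4% of the paired array. Its log2 difference was -1.50 ± 0.37 (adjusted p = 0.282, and 1.36e-03 with the block), and its other probe set gave -1.12. CXCL2 had 766 and 982 in PRMT5 shRNA cells against 1207 and 1368 in scramble cells, and CXCL3 had 432 and 699.6 against 787 and 1007. These differences, -0.56 ± 0.22 and -0.69 ± 0.31, passed neither without the block (adjusted p = 0.688 and 0.754) nor with it (0.206 and 0.150). CXCL1 had 256 and 253 in PRMT5 shRNA cells, against 469.6 and 254 in scramble cells, so the groups overlapped at scramble replicate 2 (log2 difference -0.43 ± 0.42, adjusted p = 0.919). The CXCL2 value comes from an _x_at probe set, a kind that can bind related transcripts, and the 2 other CXCL2 probe sets, below 60.0 on all 8 arrays, had log2 differences of the opposite sign, 1.26 and 0.64.

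In all, 8 of the 9 genes had both PRMT5 shRNA arrays below both scramble arrays (16.1% of all genes did), and each of the 9 was lower in both pairs (29.4% of all genes). CCL20 passed the filter only through its 2 scramble arrays, so its place in both counts was fixed by that filter. The median log2 difference of the 9, with CCL20 among them, was -1.50, against 0.0034 over all genes. The 10 monocyte and macrophage markers that were tested had log2 differences from -1.15 to 1.30 with a median of -0.04, and none rose or fell without the block. The integrin ITGAM, at the low end, had 410 and 557 in PRMT5 shRNA cells against 733 and 1579 in scramble cells, and it fell with the block (adjusted p = 0.453, and 0.0284 with the block). The scavenger receptor CD163 was at 1.30 and the mannose receptor MRC1 at 1.08 (adjusted p = 0.823 and 0.797). The calcium-binding protein S100A9 was at -0.06 and CD14 at -0.02. The part of these markers in the chemokine differences was not tested. Fewer cells making a chemokine and less RNA per cell cannot be told apart in these bulk samples. RNA quality was read from the 5' to 3' signal ratios of actin and GAPDH. Actin was at 0.187 and 0.335 for PRMT5 shRNA and 0.141 and 0.179 for scramble. GAPDH was at 0.729 and 0.778 against 0.846 and 0.883. The part of RNA quality in these differences was not tested.

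**Figure D2:**
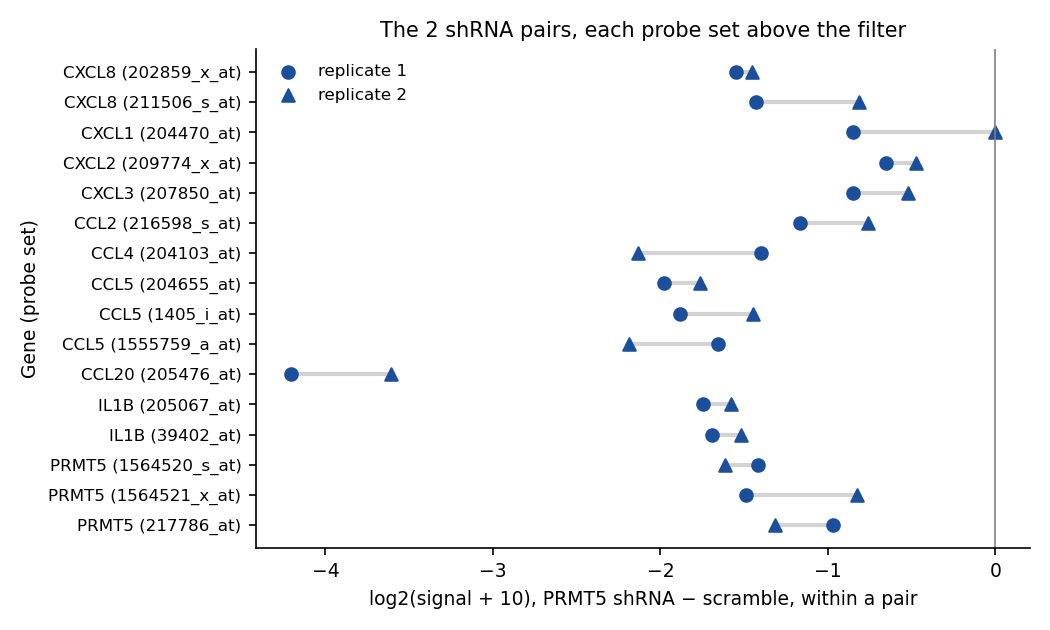
Log2 difference of PRMT5 shRNA minus scramble within each pair of arrays that share a title suffix (circle for replicate 1, triangle for replicate 2), for each probe set of the 9 genes and PRMT5 that passed the filter. All points lie at or left of 0, from -4.21 and -3.61 for CCL20 to -0.85 and -0.0045 for CXCL1.

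CEP701 was compared with DMSO to ask which transcripts the kinase inhibitor moved within 16 h. CXCL8 rose and CXCL1 fell, and none of the other 7 genes passed the test. That is 1 of 9 higher, where 3.74% of all genes were called higher, and 1 of 9 lower, where 2.04% were. The actin 5' to 3' signal ratio was 0.116 and 0.161 with CEP701, against 0.199 and 0.198 with DMSO. For GAPDH it was 0.787 and 0.856 against 0.882 and 0.809. The part of RNA quality in these calls was not tested. CXCL8 had signals of 402 and 277 with CEP701, against 98.1 and 109.7 with DMSO. Both CEP701 arrays were above both DMSO arrays (log2 difference 1.59 ± 0.37, adjusted p = 0.0419). Its other probe set had 54.9 and 59.4 with CEP701 and 40.6 and 16.3 with DMSO, under 60.0 throughout, and a log2 difference of 0.88. The call on CXCL8 passed in 9 of 19 alternatives and was lost with no filter, the mean of probe sets or no trend, under quantile normalization, median scaling and poly-A control scaling, and without any 1 CEP701 or DMSO array (1.33 to 1.86 over all arrays left out).

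CXCL1 had 5.05 and 4.99 with CEP701, against 49.1 and 31.4 with DMSO (log2 difference -1.72 ± 0.42, adjusted p = 0.0477). All 4 signals lie under 60.0, and CXCL1 passed the filter only through the shRNA arm, so the added 10 sets the size of this fall. With an added constant of 32 the difference was -0.95 (adjusted p = 0.115), and with 1 it was -2.74. The call passed in 10 of 20 alternatives and was also lost with no filter, with only the groups of the contrast, with no trend and without any 1 CEP701, DMSO or PRMT5 shRNA array (-1.98 to -1.46 over all arrays left out).

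IL1B read 4054 and 3828 on the CEP701 arrays, against 4069.8 and 4093 on the DMSO arrays. Its log2 difference of -0.05 had a 95% interval of -0.56 to 0.46 (adjusted p = 0.916). CXCL2, at 177 and 138 with CEP701 against 236 and 217 with DMSO, had a log2 difference of -0.50 ± 0.22 that did not pass (adjusted p = 0.205). Under poly-A control scaling it did, at -0.995 (adjusted p = 0.0452), while CXCL8 did not. CXCL3, with CEP701 arrays at 155 and 237 and DMSO arrays at 212 and 293, overlapped between the groups. CCL2 (2.81 to 4.89), CCL4 (5.70 to 16.8) and CCL20 (1.97 to 6.42) were near background on all CEP701 and DMSO arrays, where a change could not be measured. The CEP701 arrays read 60.1 and 82.7 for CCL5 and the DMSO arrays 76.1 and 54.0, so its groups overlapped too. Another CCL5 probe set, below 60.0 on these arrays, had 42.1 and 23.7 with CEP701 against 8.67 and 13.3 with DMSO, without overlap (log2 difference 1.01). The remaining CCL5 probe set, also below 60.0 here, had 4.90 and 9.77 against 7.26 and 11.3, with overlap (log2 difference -0.16).

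The effects of the drug and of the knockdown were then set against each other, which is the comparison the series was designed for. CXCL8 and IL1B were the 2 of 9 genes whose effects differed by the test of the difference itself, with the CEP701 effect above the PRMT5 shRNA effect (1.11% of all genes were called in that direction). For CXCL8, the log2 effects of 1.59 with CEP701 and -1.50 with PRMT5 shRNA differed by 3.09 ± 0.52 (adjusted p = 0.0318). For IL1B, effects of -0.05 and -1.66 differed by 1.61 ± 0.32 (adjusted p = 0.0476). CCL4, CCL5 and CCL20 had differences of 2.07, 1.99 and 3.55 that did not pass (adjusted p = 0.101, 0.110 and 0.111). CXCL1 was the gene with a negative difference, at -1.29 ± 0.60 (adjusted p = 0.267). With the replicate block 4 genes were called higher (8.96% of all genes), namely CXCL8, CCL4, CCL5 and IL1B. That block also pairs CEP701 and DMSO arrays, which share only a number.

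**Figure D3:**
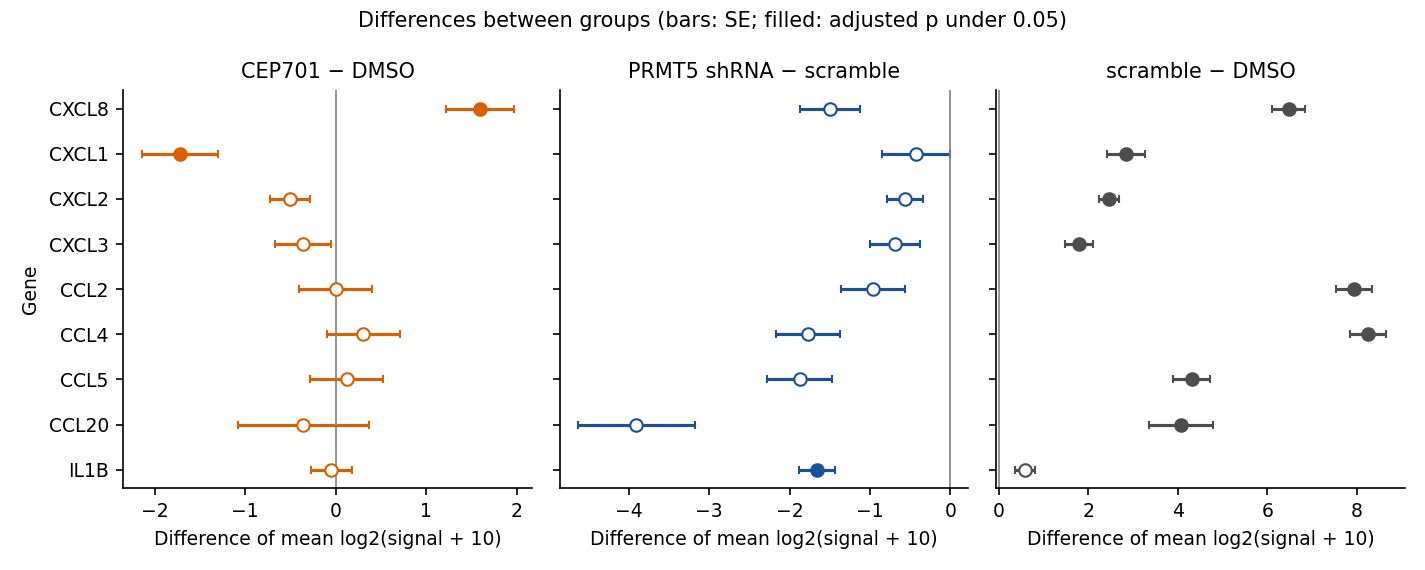
Log2 differences of the 9 genes for CEP701 minus DMSO, PRMT5 shRNA minus scramble and scramble minus DMSO, with the x axis of each panel on its own scale, bars for the SE (n = 2 each) and filled points for adjusted p under 0.05 without the block. CXCL8 lies at 1.59 in the first panel and -1.50 in the second, IL1B at -0.05 and -1.66, and 8 of 9 points are filled in the third.

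The scramble cells were compared with the DMSO cells to describe the arms before either intervention. Of the 9 genes, 8 were higher in scramble cells by the test (25.5% of all genes were), and all 9 had both scramble arrays above both DMSO arrays (40.8% of all genes). Without any filter on low signals, 8 of the 9 were called as well. Vector, selection, culture and stock of cells differ or may differ between the arms and cannot be told apart. This contrast shares its scramble arrays with the knockdown comparison and its DMSO arrays with the drug comparison.

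The widest gaps were those of CCL4 and CCL2. CCL4 had 6093 and 4569.5 in scramble cells against 5.70 and 9.10 in DMSO cells (log2 difference 8.25 ± 0.40, adjusted p = 8.20e-07). CCL2 had 4911 and 2286 against 2.81 and 4.89 (7.93 ± 0.40, adjusted p = 1.06e-06). With the DMSO signals so low, the added 10 sets these folds. Measured against 60.0, which no DMSO array reached, the lower scramble array was at least 76.2-fold higher for CCL4 and at least 38.1-fold higher for CCL2. CCL5 had 1094 and 1937 in scramble cells against 76.1 and 54.0 in DMSO cells (4.30 ± 0.40, with 6.37 and 5.40 by its other probe sets), and CCL20 differed by 4.07 ± 0.72.

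CXCL8 had 14347 and 7118 in scramble cells against 98.1 and 109.7 in DMSO cells (6.47 ± 0.37, adjusted p = 2.05e-06). That signal also comes from an _x_at probe set, and the other CXCL8 probe set, under 60.0 in DMSO cells, gave 5.10. CXCL1, CXCL2 and CXCL3 differed less, by 2.85, 2.45 and 1.80. IL1B had 7664 and 4848 in scramble cells against 4069.8 and 4093 in DMSO cells (0.58 ± 0.23, adjusted p = 0.0638). It was the gene that did not pass. Scramble arrays lay above PRMT5 shRNA arrays for each gene but CXCL1, whose groups overlapped, and for CXCL8, CXCL1, CXCL2, CXCL3, CCL2, CCL4 and CCL5 both stayed above all drug-arm arrays. IL1B was the exception with non-overlapping groups, in the order scramble, DMSO, CEP701 and PRMT5 shRNA, of which DMSO and CEP701 lay within 4093 to 3828. For CCL20, the PRMT5 shRNA and DMSO arrays overlapped.

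Monocyte and macrophage markers moved with this contrast. All 10 tested were higher in scramble cells, with a median of 3.70 against 4.07 for the 9 genes and 0.11 over all genes. CD14, CD163, MRC1, FCN1, S100A8 and S100A9 passed the filter only through the shRNA arm. So did CXCL1, CCL2, CCL4 and CCL20 among the 9 genes. FCGR1A, MARCO and VSIG4 were measured but did not pass it. These counts and medians are therefore partly set by the filter. S100A9 had 9925 and 10108 in scramble cells against 7.55 and 7.78 in DMSO cells, and CD14 had 1651 and 1751 against 2.66 and 3.11. Erythroid markers split, with 1 of 6 higher and 2 lower (20.3% of all genes were called lower). Of 9 megakaryocyte markers 4 were higher and 1 (NFE2) lower. Their sums were 65871 to 122170 for scramble against 16169 to 16270 for DMSO. The platelet chemokines among them, PPBP and PF4, made up most of the scramble sums. PPBP had 26323 and 47271 in scramble cells against 565 and 499 in DMSO cells. PF4 had 25549 and 45436 against 1725 and 1980 (log2 differences 6.03 and 4.197). ITGA2B, GP1BA, GP9 and GP6 did not pass (adjusted p = 0.397, 0.0894, 0.963 and 0.803). The part of such differences in the chemokine levels was not tested.

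The other genes of the pathway were read from 7 lists. For scale, 3.74% of all genes were called higher and 2.04% lower with CEP701. With PRMT5 shRNA 0.141% were called lower, and 1.26% with the block. Between scramble and DMSO cells 25.5% were higher and 20.3% lower. Genes high in 1 arm alone passed the filter through that arm, which partly sets the counts between the arms. Of the 18 other chemokines tested, none rose or fell with PRMT5 shRNA (median log2 difference -0.23), and 2 fell with the block. CXCL13, which attracts B cells, had 5308 and 2404 in PRMT5 shRNA cells against 17208 and 11658 in scramble cells (-1.98, adjusted p = 0.109, and 2.01e-03 with the block). CCL19, a ligand of CCR7, had 46.4 and 64.4 against 408 and 241 (-2.32, adjusted p = 0.139, and 0.0459 with the block). The platelet chemokine PF4 had 21810 and 35464 in PRMT5 shRNA cells against 25549 and 45436 in scramble cells (-0.29, adjusted p = 0.913). None of the 18 passed with CEP701, where CXCL12 was at -1.91 (adjusted p = 0.0923) and PF4 at -0.78 (adjusted p = 0.128). Between scramble and DMSO cells, 11 were higher and 1, CCL23, was lower.

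Of 12 chemokine receptors, none passed with PRMT5 shRNA (median 0.02). With the block 2 fell, CCR7 at -1.96 and ACKR1, a decoy receptor that binds CXCL8 and CCL2, at -1.58. With CEP701, 2 rose, CCR1, a receptor for CCL5, by 0.84 (adjusted p = 0.0468) and the fractalkine receptor CX3CR1 by 0.70 (adjusted p = 0.0411). Between scramble and DMSO cells, 6 receptors were higher and 2 lower.

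Of 18 interleukin 1 pathway genes, none passed in PRMT5 shRNA cells (median -0.25), with the block or without it, and none with CEP701 without the block (median 0.30). The decoy receptor IL1R2 was at 1.74 with PRMT5 shRNA (adjusted p = 0.455), and the related cytokine IL18 was at 0.67 with CEP701 (adjusted p = 0.0647). IRAK1, a kinase below the receptor, was at 0.46 with PRMT5 shRNA (adjusted p = 0.621) and -0.47 with CEP701 (adjusted p = 0.119). Between scramble and DMSO cells, 13 of the 18 were higher and 1 was lower. The receptor antagonist IL1RN was among the higher, at 5562 and 6471 in scramble cells against 1.55 and 15.8 in DMSO cells.

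Of 17 NF-kB subunits and inhibitors, none passed with PRMT5 shRNA (median -0.07). The feedback inhibitor TNFAIP3 fell with the block alone, at 4289 and 4381 in PRMT5 shRNA cells against 6810 and 8318 in scramble cells (-0.79, adjusted p = 0.182, and 0.0163 with the block). It rose by 0.69 with CEP701 (adjusted p = 0.0462), as did no other gene of the list. TNIP1, which works with TNFAIP3, was at -0.48 with PRMT5 shRNA (adjusted p = 0.421), and the kinase CHUK at -0.76 with CEP701 (adjusted p = 0.157). RELA itself had 1520 and 1645 in PRMT5 shRNA cells against 1633 and 1739 in scramble cells. Between scramble and DMSO cells, 10 of the 17 were higher.

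Of 15 other NF-kB targets, none passed with PRMT5 shRNA without the block (median -0.55), and BCL2A1, which blocks cell death, and CD83, an activation marker, fell with it, at -0.95 and -1.19. IL6, an inflammatory cytokine, was at -2.37 (adjusted p = 0.297, and 0.0663 with the block). With CEP701, the growth factor CSF1 rose by 1.96 and BCL2A1 by 1.13, and IER3, an early response gene, fell by 1.04 (adjusted p = 0.0136, 0.0189 and 0.0372). Between scramble and DMSO cells, 11 were higher and 1 was lower.

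Of 10 AP-1 and C/EBP factors, none passed with PRMT5 shRNA (median -0.23), where JUNB was at -0.78 (adjusted p = 0.545). With CEP701, JUN rose by 1.04, and CEBPA and CEBPD fell by 0.89 and 1.07. Of 7 proteins that act on AU-rich messages none passed in these comparisons. ZFP36L1 was at -0.64 (adjusted p = 0.764) and ELAVL1 at 0.34 (adjusted p = 0.791) with PRMT5 shRNA, and ELAVL1 at -0.57 (adjusted p = 0.0917) and ZFP36L2 at -0.39 (adjusted p = 0.190) with CEP701. Between scramble and DMSO cells, 8 of 10 AP-1 and C/EBP factors were higher and 1 was lower, and 3 of 7 AU-rich decay proteins were higher and 3 lower.

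**Figure D4:**
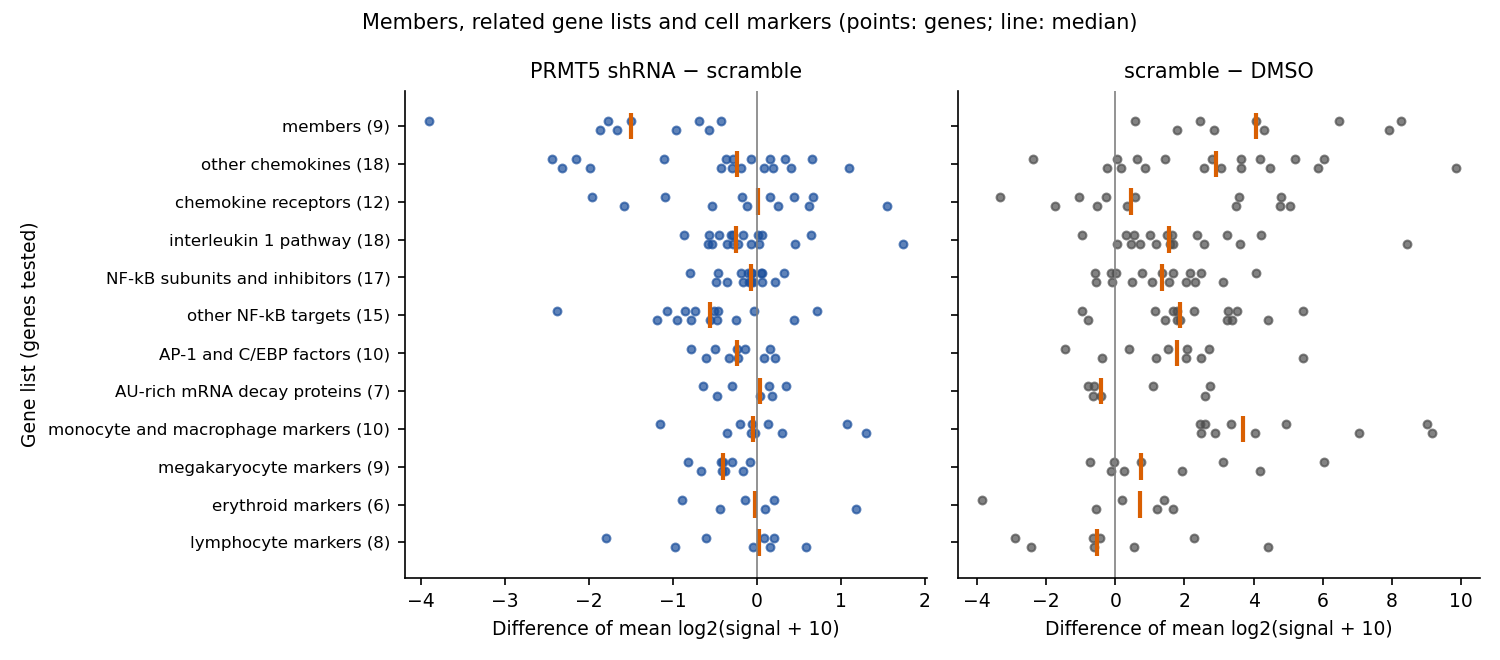
Log2 differences of single genes (points) and their median (orange line) for the 9 genes, 7 related lists and 4 lists of cell markers, for PRMT5 shRNA minus scramble and scramble minus DMSO. In the first panel the 9 genes have a median of -1.50 and monocyte and macrophage markers -0.04, and in the second the medians are 4.07 and 3.70.

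Profiles were compared over the 8 arrays after the mean of each arm was subtracted, as a description of arrays that share a scaling and, in each arm, their controls. IL1B ran most closely with CCL20 (Pearson's r = 0.99), CCL4 (0.92) and CCL2 (0.90), and least with CXCL1 (0.32). CXCL8 correlated with CCL4 at 0.75 and with CXCL1 at -0.37. CCL20 was near background on all but the scramble arrays, and CCL2 and CCL4 on all CEP701 and DMSO arrays. Correlations with these genes thus rest mainly on the difference between scramble and PRMT5 shRNA. Outside the 9 genes, the profiles most like IL1B were those of PLS3, an actin-bundling protein (0.985), SLCO5A1 (0.973), TIMP1, an inhibitor of metalloproteinases (0.972), BAG4 (0.970) and CXCL13 (0.968). Those most like CXCL8 were ZNF485 (0.974), ADAMTS3 (0.968), THTPA (0.963), NAV2-AS2 (0.963) and CD244 (0.963). SLCO5A1 and CXCL13 were also near background on the CEP701 and DMSO arrays, and NAV2-AS2 on the PRMT5 shRNA and scramble arrays.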

How the data were processed

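The authors' deposited intensity values, linear and 1 per probe set and array, came from MAS5 (Affymetrix Expression Console), per the submitters' processing notes. The input, per the labels, was 200 ng of RNA, copied into biotin-labelled cRNA. The mean trimmed of 2% at each end was 500.1 on every array, and the genome build was not given in the sources used here. Probe sets naming a single gene (41097, with 1801 naming several and 11777 none) were found by the platform annotation. Of these, 41043 took the RefSeq symbol of the same gene identifier, and the rest kept the symbol of the annotation.

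A probe set entered the tests if 2 or more arrays read over 60.0, which is the overall median signal. The probe set of highest mean log2(signal + 10) stood for each of 14162 genes. The 4 groups were fitted in 1 linear model with limma 3.58.1 (eBayes with a trend, R 4.3.3), with 4 residual and 5.37 prior degrees of freedom. Adjusted p-values are Benjamini-Hochberg values over all genes of a contrast, with a threshold of 0.05. The calculation was tested on simulated independent arrays, for the recovery and size of added differences. That test set no limit on false calls and held no correlation within pairs.

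PRMT5 shRNA and scramble arrays share a title suffix by replicate, and their deviations correlated across genes (r = 0.323), so blocked values are given. None are given for scramble minus DMSO, which crosses the arms, because the block does not pair arrays between arms. The drug arrays share only a number (r = -0.0115), by which the block pairs them. Blocked p-values thus do not rest on the shRNA pairs alone, and the blocked fit has fewer residual degrees of freedom than the main fit. The members and lists were chosen with earlier results of these data known. The named genes were the members, PRMT5, and in each list the genes called with CEP701 or with PRMT5 shRNA. Up to 2 genes of lowest unadjusted p in each of these comparisons were named as well. In addition, the 5 profiles most like CXCL8 and IL1B were named. RELA, IL1RN, CCL23, CD83 and the markers shown were picked outside that rule, after their values were seen. The 20 alternatives were other constants, filters, scalings, probe set choices and models, and each array left out.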

Additional observations from a re-analysis of the deposited data

Results flagged for a closer look

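The CEP701 effect and the PRMT5 shRNA effect differed for 2 of the 9 genes by the test of the difference itself. For CXCL8, the log2 difference of effects was 3.09 (adjusted p = 0.0318), with signals of 402 and 277 with CEP701 against 98.1 and 109.7 with DMSO, and 4906 and 2594 with PRMT5 shRNA against 14347 and 7118 with scramble. For IL1B it was 1.61 (adjusted p = 0.0476), with signals of 4054 and 3828 with CEP701 against 4069.8 and 4093 with DMSO, and 2281 and 1619.9 with PRMT5 shRNA against 7664 and 4848 with scramble. Over the alternatives, the CXCL8 difference passed in 11 of 19 and the IL1B difference in 8 of 20.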

How the results depend on the processing

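The scramble minus DMSO comparison called 8 or 9 genes without single arrays, 7 under a stricter filter (4 arrays), which leaves out CCL20, and 5 without _x_at and _s_at probe sets, which leaves out CXCL8, CXCL2 and CCL2. For CEP701 minus DMSO, 2 genes were called, with 0 to 2 without single arrays, 1 with an added constant of 32, under quantile normalization or median scaling, with only the groups of the contrast, with the mean of probe sets or without _x_at and _s_at probe sets, and 0 with no filter or no trend. Under poly-A control scaling the 2 called were both lower, CXCL1 and CXCL2. For PRMT5 shRNA minus scramble, 1 gene was called, with 0 to 1 without single arrays, 5 with the replicate block, 2 with no filter, and 0 under poly-A control scaling, with only the groups of the contrast or with no trend. For the difference of effects, 2 were called, with 0 to 2 without single arrays, 4 with the replicate block, 1 with an added constant of 1, no filter, median scaling or without _x_at and _s_at probe sets, and 0 under quantile normalization or poly-A control scaling, with the mean of probe sets or with no trend. The cause of these changes was not tested.

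Scaling to the poly-A controls moved the median of all genes for CEP701 minus DMSO to -0.39, against 0.10 as reported, and CXCL8 to 1.11. Signs turned only for log2 differences that had not passed. With CEP701, CCL5 turned to -0.10 under quantile normalization, -0.10 under median scaling and -0.33 under poly-A control scaling, CCL2 to 0.0012 with an added constant of 1, and IL1B to 0.0083 under quantile normalization. The difference of effects for CXCL2 turned to -0.093 under quantile normalization, -0.16 under median scaling and -0.47 under poly-A control scaling, and for CXCL3 to -0.20 under the last. Without single arrays, CCL2 ran from -0.11 to 0.11, CCL4 from -0.017 to 0.63 and CCL5 from -0.094 to 0.33 with CEP701, CXCL1 from -0.86 to 0.0040 with PRMT5 shRNA, and the differences of effects from -0.12 to 0.24 for CXCL2 and from -0.017 to 0.67 for CXCL3. The files hold no detection calls, so signals under 60.0 set the limit for CXCL1, CCL2, CCL4 and CCL20 in the drug arm.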
